A study of Mus musculus with 9 samples.

Results

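The genes described here are the cytosolic ribosomal protein genes of sorted mouse lung fibroblasts. They were taken as every protein-coding row of the deposited gene table whose symbol begins with Rpl or Rps followed by a number, or is Rpsa or Rplp0 to Rplp2, leaving out the S6 kinases, and whose mean raw count over the 9 libraries was 25 or more. Of 43346 genes in the table, 106 fitted the symbol rule and 90 of those reached the count minimum. The 90 were 46 core proteins of the large subunit, 31 core proteins of the small subunit, 6 paralogs of core genes (Rpl22l1, Rpl7l1, Rpl36al, Rps27l, Rps4l and Rps27rt), 6 rows with a pseudogene symbol, and Rps19bp1, which is named for binding a ribosomal protein and is not one. The 16 rows under the minimum were mostly pseudogene symbols.

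The libraries came from male Col1a1-GFP mice, in which the collagen I promoter drives green fluorescent protein, at an age the labels give as 72 weeks and as 18 months. Each mouse had received 1 intratracheal dose of saline (aged sham, 4 libraries) or bleomycin (aged bleo, 5 libraries), and lungs were taken at day 30. Cells were sorted as GFP+ and CD45-, CD31- and EpCAM-, so the marker of the sort is itself a collagen promoter reporter and both groups carry the transgene. All mice were aged, and no young mice were analysed here.

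A cytosolic ribosome carries 1 copy of most of these proteins, assembled in the nucleolus onto ribosomal RNA, and cells keep the proteins in balance by degrading those that are not built into a subunit. Most ribosomal protein mRNAs begin with a run of pyrimidines at the cap, the 5′ terminal oligopyrimidine (TOP) motif, through which LARP1 and mTORC1 set their translation as a group. The mRNA level measured here is therefore upstream of that control, and translation was not measured.

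The TOP motif can be seen at the annotated start of several of these genes. Of the 77 core genes, 57 were found in the RefSeq promoter table (assembly GRCm38.p6), and 27 of them (47.4%) had a C followed by at least 4 C or T beginning within 5 bases of an annotated start, on the gene's own strand, against 21.2% of the 27025 genes of that table. The share was close in both subunits, at 16 of 34 large subunit and 11 of 23 small subunit genes. The lines below each show 15 bases before and 15 from an annotated start, with capitals marking the unbroken run of at least 5 pyrimidines that holds the start base. The first 4 have such a run, and in Rpl41, the core gene with the largest fitted rise, and Rps27l no such run holds the start base. The Rps27l window has pyrimidine runs on both sides of that base, and a C followed by at least 4 C or T does begin within 5 bases of it.
Rps6 (chr4:86857353-86857382, minus strand): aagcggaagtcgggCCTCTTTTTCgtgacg
Rps9 (chr7:3704026-3704055, plus strand): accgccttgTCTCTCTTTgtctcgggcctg
Rpl15 (chr14:18270972-18271001, minus strand): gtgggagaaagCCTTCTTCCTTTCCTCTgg
Rpl7a (chr2:26910792-26910821, plus strand): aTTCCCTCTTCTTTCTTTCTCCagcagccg
Rpl41 (chr10:128549154-128549183, minus strand): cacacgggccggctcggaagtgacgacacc
Rps27l (chr9:66946071-66946100, plus strand): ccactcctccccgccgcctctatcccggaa
An annotated start is not a measured cap site, so a line without capitals says only that no run holds that annotated base.

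The paralogs differ in how far their reads can be told apart from those of the core gene, which the first 60 coding bases show. Capitals mark bases that differ from the core gene named first (GENCODE M21 transcripts, GRCm38; the M21 gene spans are given).
Rps27 (chr3:90212522-90213651, minus strand): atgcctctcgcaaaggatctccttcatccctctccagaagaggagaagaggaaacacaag
Rps27l (chr9:66946086-66949516, plus strand): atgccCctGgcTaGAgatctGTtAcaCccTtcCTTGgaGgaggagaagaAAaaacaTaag
Rps27rt (chr9:114982366-114982739, minus strand): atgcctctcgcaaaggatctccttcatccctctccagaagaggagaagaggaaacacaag
Rps4x (chrX:102184941-102189394, minus strand): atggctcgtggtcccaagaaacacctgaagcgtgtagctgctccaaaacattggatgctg
Rps4l (chr6:148354656-148355598, plus strand): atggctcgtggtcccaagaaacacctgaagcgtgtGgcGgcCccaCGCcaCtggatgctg
Rps27l differed from Rps27 at 18 of these 60 bases, and over 254 aligned transcript positions 76.4% were identical with no 50-base stretch in common. Rps4l differed from Rps4x at 7 of 60 bases, with 77.6% identity and again no 50-base stretch in common with Rps4x. Both shared sequence with other annotated genes. Of the 50-base windows of Rps27l, 22.4% occurred elsewhere (4 genes), and of those of Rps4l 14.9% (1 gene). Rps27rt did not differ from Rps27 at any of the 60 bases, and 89.8% of the 50-base windows of Rps27rt were also in Rps27. The values of Rps27 and Rps27rt are therefore uncertain and cannot be separated. Across the core genes, a median of 61.1% of the 50-base windows of a large subunit transcript occurred in another annotated gene. For a small subunit transcript the median was 51.7%. The type of those other genes was not recorded.

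Each library held 49921946 to 68260600 counted reads, with aged bleo library 4 the deepest. The fibroblast identity list (9 genes, among them Col1a1, Pdgfra and Dcn) had a mean log2 CPM (counts scaled to 1000000 per library, after TMM scaling) of 9.97 to 10.2 in aged sham and 9.96 to 10.6 in aged bleo, so the labelled cell type was present in every library. Leukocyte genes were detected despite the CD45- gate. The summed CPM of 8 pan-leukocyte genes was 115 to 442 in aged sham, 120 to 185 in 4 aged bleo libraries and 692 in aged bleo library 4, in which all 8 were at their highest of the 9 libraries; none of the 8 was at 0 in any library. The 11 macrophage genes summed to 241 to 638 CPM in aged sham and 542 to 1995 CPM in aged bleo. All 11 were highest in aged bleo library 4, and none was at 0. Their median log2 fold change was 1.33, with 4 called higher (36.4%, against 23.4% of all genes) and 0 lower. Without library 4 the counts were 4 (against 21.8%) and 0. All 4 tested B cell genes, with low sums of 0.930 to 10.6 CPM, were called lower in both fits (against 21.4% and 22.5% of all genes). Of 8 neutrophil genes, 0 were called with all libraries and 7 were called lower without library 4. The 10 cell cycle genes summed to 12.5 to 66.6 CPM in aged sham and 44.2 to 355 CPM in aged bleo, and none was at 0. The highest was again library 4 (355 CPM), with library 5 close to it (313 CPM). Aged bleo library 4 thus had the highest sums of these pan-leukocyte, macrophage and cell cycle lists. The main counts below are also given without it, a choice made after seeing the data for the gene lists.

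The question was whether bleomycin exposure left the ribosomal protein mRNAs of aged fibroblasts at another level 30 days later. The class as a whole kept a median close to 0 while its libraries spread widely after bleomycin. The median fitted log2 fold change of the 90 genes, aged bleo over aged sham, was 0.02, beside 0.01 over all 16877 genes tested, and 50 genes were fitted higher and 40 lower. In edgeR's quasi-likelihood test with Benjamini-Hochberg adjustment over all genes tested, 5 of 90 (5.56%) had an adjusted p, the false discovery rate (FDR), under 0.10, whereas 44.8% of all genes tested did. Genes called higher were 4 of 90 (4.44%), against 23.4% of all genes, and genes called lower were 1 of 90 (1.11%), against 21.4%. With a fold change over 1.5 as well, 3 rose (Rps4l, Rps27l and Rpl41) and 0 fell, where the shares of all genes were 12.3% higher, 11.5% lower and 23.8% in either direction. At an unadjusted p under 0.05 and a fall past that fold the count was also 0, in edgeR, DESeq2 and limma-trend. Every library is a mixture, and fewer cells of a type and less RNA per cell cannot be told apart in it.

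Most of the fitted changes were bounded closely. The median standard error of the fitted log2 fold change over the 77 core genes was 0.18, and the 95% interval of the change lay within a 2-fold rise or fall for 75 of the 77 and within 1.5-fold for 54. Intervals over all core genes ran from -1.26 (the lower bound of Rpl37a) to 1.17 (the upper bound of Rpl41). No core gene had all aged bleo libraries above or all below all aged sham libraries, while 16.1% of all genes had them all above and 16.1% all below.

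**Figure D1:**
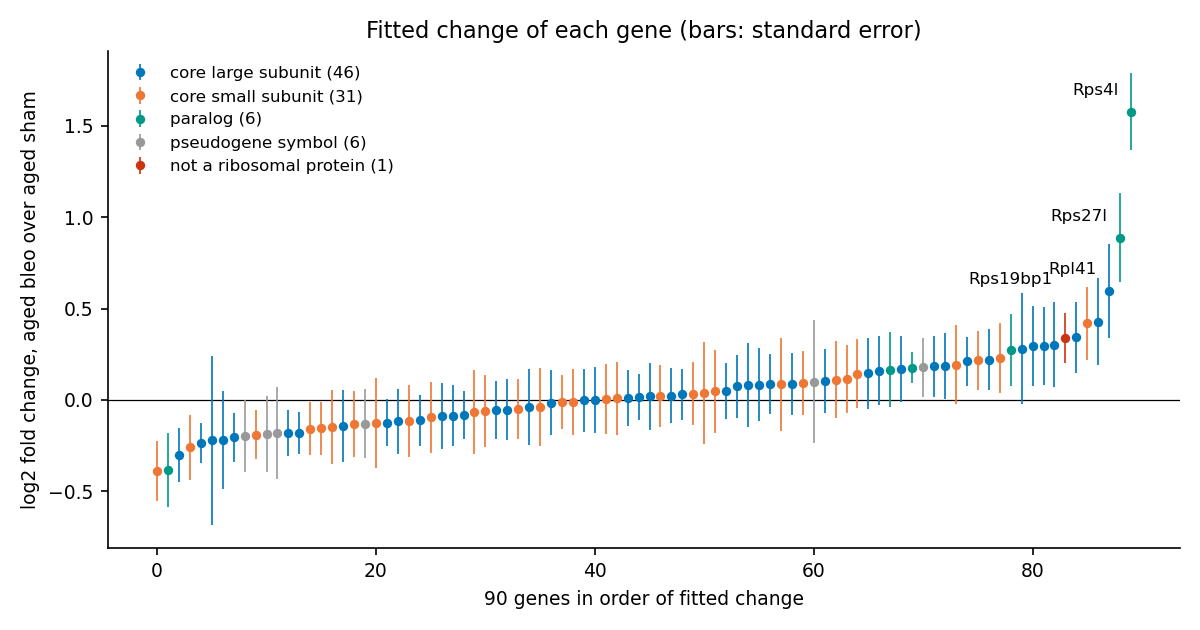
Fitted log2 fold change (aged bleo over aged sham, vertical axis) of the 90 genes in rising order (horizontal axis), coloured by class, with bars of 1 standard error; the 4 genes called higher are named. Most genes lie close to 0, and Rps4l (1.58) and Rps27l (0.89) stand above the rest.

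The aged bleo libraries spread widely around the near-zero median. The 90 genes together took 1.498%, 1.68%, 1.49% and 1.62% of the counted reads in aged sham libraries 1 to 4. They took 1.36%, 1.18%, 1.21%, 2.36% and 1.75% in aged bleo libraries 1 to 5. Aged bleo libraries 1, 2 and 3 were below all aged sham libraries and libraries 4 and 5 were above them, so that the group means were both 1.57% (SD 0.0919, n = 4, and SD 0.495, n = 5). The highest aged sham share was 1.12 times the lowest, and the highest aged bleo share was 2.00 times the lowest.

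**Figure D2:**
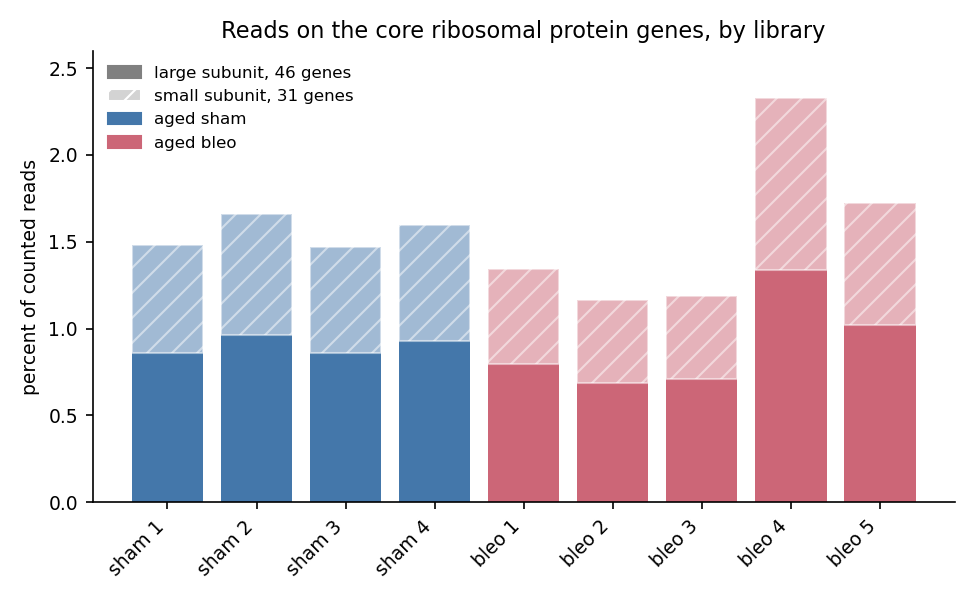
Percent of counted reads (vertical axis) on the 46 large subunit (solid) and 31 small subunit (hatched) core genes in each library, aged sham in blue and aged bleo in red. Aged sham libraries sit between 1.47% and 1.66%, and aged bleo libraries run from 1.17% (library 2) to 2.33% (library 4).

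Nearly every core gene followed this order. Aged bleo library 4 was the highest of all 9 libraries for 72 of 77 core genes (93.5%), where the share of all genes tested was 23.7%. The lowest aged bleo library was library 2 for 44 core genes and library 3 for the other 33, which is all 77; for all genes tested, library 2 or 3 was the lowest for 36.5%. The highest-to-lowest ratio of a core gene among the aged bleo libraries had a median of 1.87, from 1.38 for Rpl10 to 5.93 for Rpl37a, and among the aged sham libraries a median of 1.17, from 1.07 for Rpl7a to 2.82 for Rpl35a.

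The extremes of those ratios were genes with a low value in 1 or 2 libraries. Rpl37a, a large subunit protein, stood at 39.2 and 31.2 CPM in aged bleo libraries 1 and 2, against 98.5, 185 and 128 CPM in libraries 3 to 5 and 106, 124, 106 and 115 CPM in aged sham. Rpl35a was at 47.5, 50.2, 42.8 and 17.8 CPM in aged sham and 34.0 to 66.2 CPM in aged bleo. In each case the other core genes of the same library were not low to that degree, and 38.5% of the Rpl37a windows and 54.5% of the Rpl35a windows were shared with other genes. Neither gene passed the test (FDR 0.739 and 0.504).

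Both subunits moved together between libraries. The ratio of large to small subunit counts was 1.38 to 1.40 in aged sham and 1.35 to 1.49 in aged bleo, the lowest in library 4 and the highest in library 3. The large subunit genes had a median fitted log2 fold change of 0.02 and the small subunit genes of -0.01. One gene of the large subunit rose (Rpl41).

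The outcome of the test over these genes depended on which aged bleo library was in it. Without aged bleo library 4, 22 of 90 genes (24.4%) were called lower and 2 higher, and the median log2 fold change was -0.17, beside -0.01 over all genes. The 24.4% was close to the 22.5% of all genes called lower in that fit, and 21.8% of all genes were called higher. The 22 included 9 large and 10 small subunit genes, among them Rpl22 (-0.44 ± 0.10 SE), Rps27 (-0.43 ± 0.12) and Rps21 (-0.42 ± 0.11), and the 2 called higher were Rps4l and Rps27l. Without aged bleo library 2, in contrast, 7 genes were called higher (7.78%, against 25.8% of all genes) and 0 lower (against 24.3%), with a median of 0.09. With any of the other 7 libraries left out, 2 to 5 genes were called higher and 0 lower. The shares of all genes called in those 7 fits were not computed, so these counts stand without them. In all of these fits other than the one without library 4, the count lower at an unadjusted p under 0.05 was 0 as well. The pan-leukocyte, macrophage and cell cycle lists had their highest summed CPM in aged bleo library 4. The neutrophil list had 1094 CPM there and 1237 CPM in aged sham library 4. The part of these lists in the ribosomal protein level of aged bleo library 4 was not tested. Aged bleo library 4 and aged sham library 4 had the most pan-leukocyte signal of each group. Without both of them, 10 of 90 genes were called lower and 2 higher, with a median of -0.15. The share of all genes called in that fit was not computed, so these counts cannot be set against it.

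**Figure D3:**
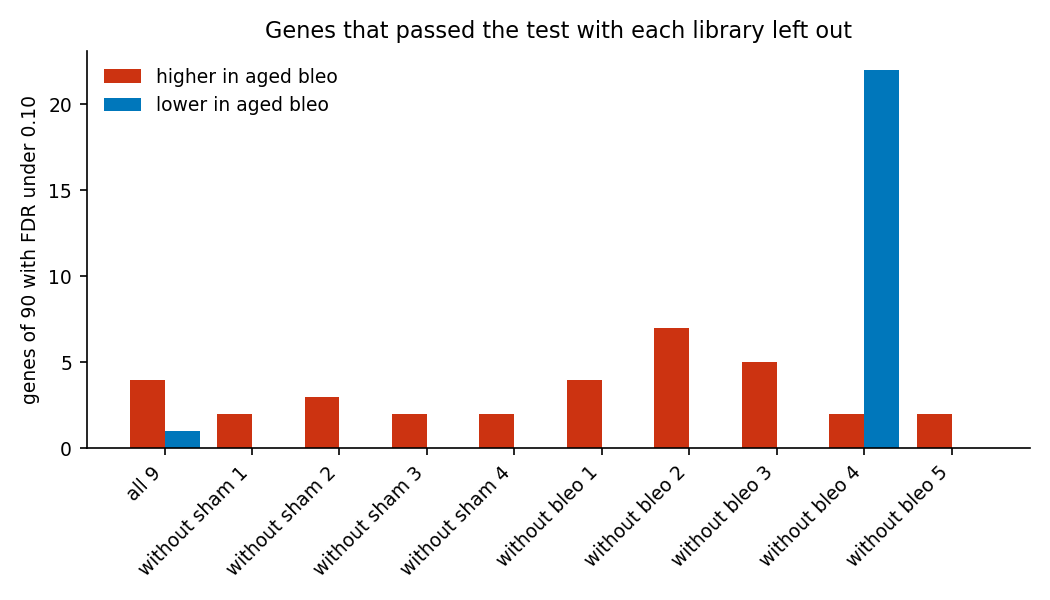
Number of the 90 genes with an FDR under 0.10 (vertical axis), higher in red and lower in blue, with all 9 libraries and with each library left out in turn (horizontal axis). The 22 lower calls without aged bleo library 4 contrast with 1 or 0 in every other fit shown.

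The largest change was in Rps4l, a retained copy of the X-linked small subunit gene Rps4x. It was at 2.04, 1.59, 1.89 and 2.52 CPM in aged sham and at 5.60, 4.19, 7.92, 6.33 and 5.93 CPM in aged bleo. Every aged bleo library lay above every aged sham library, and the highest was library 3, not library 4. The mean rose from 2.01 ± 0.388 (SD, n = 4) to 6.00 ± 1.34 CPM (SD, n = 5), a fitted log2 fold change of 1.58 ± 0.21 (SE; FDR 0.000844). The call held with each library left out (1.46 to 1.70), and with library 4 left out the change was 1.55.

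The identity of the Rps4l signal had limits. The deposited table lists the gene as protein-coding, whereas GENCODE M21 annotates it as a transcribed processed pseudogene, at chr6:148354656-148355598 on the plus strand. It lies within the span of Tmtc1, which is transcribed from the opposite strand, and the library kit does not mark strand. Tmtc1 was at 161, 139, 149 and 128 CPM in aged sham and 184, 182, 193, 77.2 and 121 CPM in aged bleo (FDR 0.846, not called). Like Rps4l, it was highest in aged bleo library 3. It was lowest in aged bleo library 4, where Rps4l was at 6.33 CPM. The part of Tmtc1 reads in the Rps4l counts was not tested. Rps4x, the parent of Rps4l, was at 541, 619, 550 and 612 CPM in aged sham and 487, 411, 443, 618 and 585 CPM in aged bleo (-0.19 ± 0.13, FDR 0.296). The copy and the parent thus did not move alike.

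Rps27l, a paralog of the small subunit protein Rps27 and a known p53 target, was the other gene whose groups did not overlap. Its level was 12.6, 13.1, 13.5 and 13.5 CPM in aged sham and 19.4, 16.1, 18.2, 36.8 and 31.3 CPM in aged bleo. Libraries 4 and 5 were the highest by a wide margin, and the lowest aged bleo library still exceeded the highest aged sham library. The fitted log2 fold change was 0.89 ± 0.24 (FDR 0.0210), and it was 0.68 without library 4 (FDR 0.0253). Rps27 itself was at 143, 174, 148 and 177 CPM in aged sham and 120, 117, 99.6, 191 and 144 CPM in aged bleo, with an uncalled change of -0.26 ± 0.18 (FDR 0.282).

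The other paralogs were not called. Rps27rt was at 10.8 to 12.5 CPM in aged sham and 6.74 to 13.7 CPM in aged bleo (-0.38 ± 0.20, FDR 0.166), with the same order of aged bleo libraries as Rps27, whose sequence it shares; Osbpl10, on the opposite strand of its locus, was at 1.10 to 2.23 CPM in aged sham and 2.40 to 4.34 CPM in aged bleo. Rpl22l1, whose protein resembles Rpl22, changed by 0.17 ± 0.21, Rpl7l1 by 0.18 ± 0.086 and Rpl36al by 0.27 ± 0.20, all fitted higher with FDR values of 0.560, 0.139 and 0.306. Of the 6 paralogs, 2 rose, 0 fell and 4 did not pass the test, and 5 were fitted higher; without library 4, Rps27rt was called lower (-0.60 ± 0.12, FDR 0.00727).

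**Figure D4:**
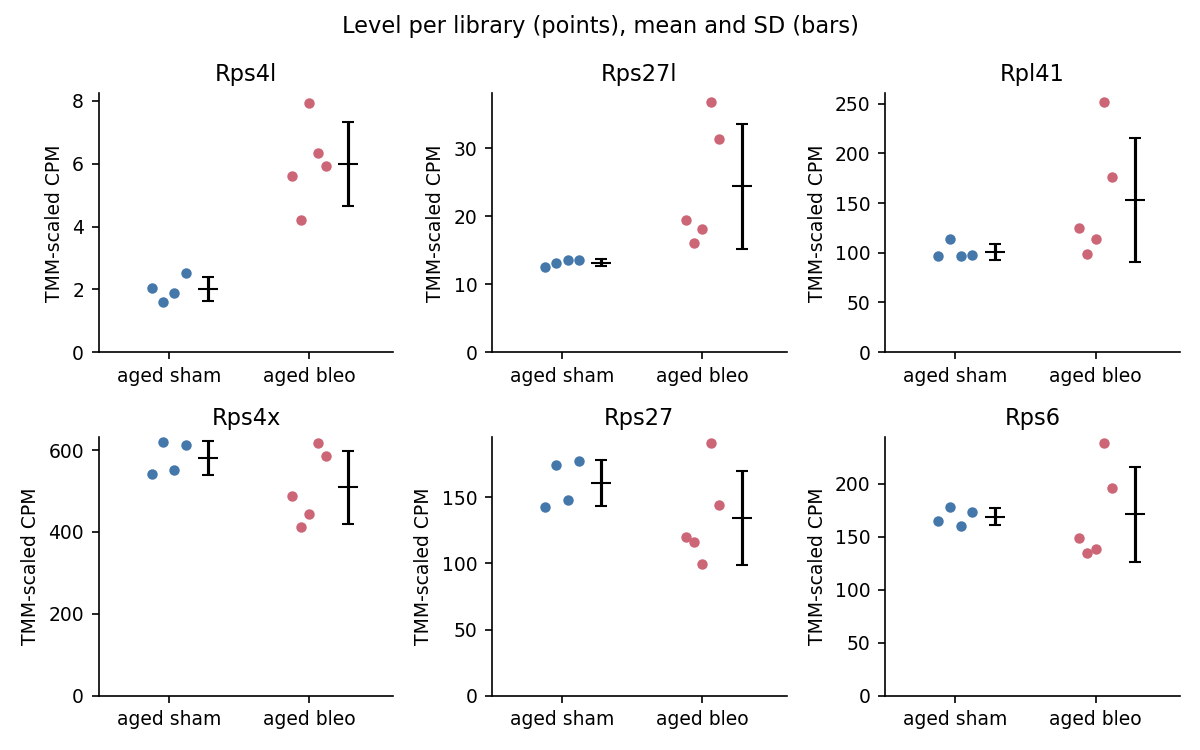
TMM-scaled CPM (vertical axes, each from 0) of 6 genes in the 4 aged sham and 5 aged bleo libraries, with the mean and SD at the right of each group. The groups are separate for Rps4l and Rps27l and overlap for Rpl41, Rps4x, Rps27 and Rps6.

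Among the core genes, Rpl41 rose. It encodes the smallest ribosomal protein, a short basic peptide of the large subunit. The level was 96.8, 113, 97.3 and 97.3 CPM in aged sham and 125, 98.8, 114, 252 and 176 CPM in aged bleo. Library 2 lay within the aged sham range and library 4 was well above the rest. The fitted log2 fold change was 0.60 ± 0.26 (FDR 0.0981), and the call was lost without aged bleo library 4 (0.33, FDR 0.150), without aged bleo library 5 (FDR 0.179) and without any of the 4 aged sham libraries (FDR 0.132 to 0.189).

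Rps19bp1, the row that is no ribosomal protein (a nucleolar partner of Rps19), was at 7.32 to 8.52 CPM in aged sham and 8.37 to 12.5 CPM in aged bleo (0.34 ± 0.14, FDR 0.0787), and lost its call without aged bleo library 4 (FDR 0.123), aged bleo library 5 (0.144) or aged sham libraries 1, 3 and 4 (0.146, 0.178 and 0.162).

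The functional subgroups of the core followed the same library pattern, the X-linked genes only in part, with no call while all 9 libraries were in the fit. The P stalk, which recruits elongation factors to the ribosome, is built of Rplp0, Rplp1 and Rplp2. Rplp0 was at 520, 499, 467 and 496 CPM in aged sham and 533, 404, 501, 902 and 701 CPM in aged bleo (0.30 ± 0.21, FDR 0.305). Rplp1 changed by -0.09 ± 0.18 and Rplp2 by 0.16 ± 0.19, with FDR values of 0.732 and 0.542. All 3 were highest in aged bleo library 4 and lowest, among aged bleo, in library 2. Without library 4, Rplp1 was called lower (-0.28 ± 0.10, FDR 0.0697).

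Rpl5 and Rpl11 form with 5S ribosomal RNA the particle that can bind Mdm2 when ribosome assembly stalls. Rpl5 was at 226, 253, 230 and 258 CPM in aged sham and 186, 179, 152, 298 and 279 CPM in aged bleo (-0.14 ± 0.20, FDR 0.599). Rpl11 was at 122 to 143 CPM in aged sham and 105 to 197 CPM in aged bleo (0.10 ± 0.17, FDR 0.673). Rps6, the small subunit protein phosphorylated by S6 kinase, was at 165, 178, 160 and 173 CPM in aged sham and 149, 135, 139, 238 and 196 CPM in aged bleo (0.02 ± 0.17, FDR 0.940). Its 95% interval was -0.36 to 0.40, on the log2 scale.

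The 4 X-linked core genes were also uncalled with all 9 libraries, and only 1 of them was highest in aged bleo library 4. Rpl10 and Rps4x were highest in aged sham library 2, and Rpl39 in aged bleo library 5. Rpl10 had the smallest ratio between aged bleo libraries and changed by -0.24 ± 0.11 (FDR 0.125), Rpl39 by 0.15 ± 0.19, Rpl36a by 0.18 ± 0.17 and Rps4x as given above; without library 4, Rpl10 was called lower (-0.32 ± 0.093, FDR 0.0277). Of 18 genes in which mutations cause Diamond-Blackfan anaemia, a red cell disorder of ribosome production, 0 were called in either direction, against 44.8% of all genes, and all 18 were highest in aged bleo library 4; at an unadjusted p under 0.05 the count was 0 as well, in edgeR, DESeq2 and limma-trend. Without library 4, 4 of the 18 (22.2%, against 22.5% of all genes) were called lower and 0 higher, with a median of -0.13. Fau, which encodes a ribosomal protein fused to a ubiquitin-like part, and Gnb2l1 (Rack1), a scaffold of the small subunit, carry other symbols and were not among the 90. They changed by 0.01 ± 0.19 and -0.01 ± 0.19, and each was highest in aged bleo library 4.

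Levels between genes were compared per length, as mean FPKM over the 9 libraries. Rplp1 was the highest core gene (350 FPKM), followed by Rps27 (243), Rpl4 (236), Rpl8 (194) and Rps15 (167); the median core gene was at 49.96 FPKM. The order of Rplp1 above Rps27, of Rpl4 above Rpl8 and of Rpl8 above Rps15 held in 9 of 9 libraries, whereas Rps27 exceeded Rpl4 in only 5 of 9, so those neighbours did not differ beyond their spread. The lowest of all 90 were the copies Rps4l (1.91), Rps12-ps3 (0.745) and Rpl10-ps3 (0.467), and the lowest core gene was Rpl29 (5.31). The length in the table counts all annotated exons of a gene, 6262 bases for Rps15a, so the FPKM of a gene with long rare isoforms understates its mature mRNA. For Rps27 that length was 255 bases, while its M21 transcript has 345. The share of 50-base windows found in other genes was 7.9% for Rpl8, 16.5% for Rpl4, 66.6% for Rpl29 and 98.6% for Rps27. How reads with several matches were counted is not known, so the order between genes is uncertain.

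When each library was scaled to the summed counts of the 77 core genes, a choice made after seeing the data, the question became which genes changed relative to the rest of the ribosome. Then 7 of 90 (7.78%) were called higher, against 15.4% of all genes, and 1 lower, against 4.26%, with the median of all genes moved to 0.10. On this scale the genes called higher were Rps4l (log2 fold change 1.66 ± 0.27), Rps27l (0.88 ± 0.14), Rpl41 (0.58 ± 0.15), Rps15a (0.43 ± 0.14), Rpl27 (0.42 ± 0.13), Rps19bp1 (0.39 ± 0.14) and Rpl34 (0.36 ± 0.12). The 1 called lower was Rps27rt (-0.37 ± 0.13). These values are relative to the summed core genes, and the median of all genes was not subtracted from them. The standard errors of Rps27l and Rpl41 were smaller than under TMM scaling, at 0.14 and 0.15 in place of 0.24 and 0.26.

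The pathways around the ribosome were described from lists, whose counts stand beside the 23.4% of all genes called higher and 21.4% called lower with all libraries, and 21.8% and 22.5% without aged bleo library 4. The 77 mitochondrial ribosomal protein genes, which serve a separate ribosome, had 23 called higher (29.9%) and 1 lower (1.30%), with a median log2 fold change of 0.21; without library 4 the counts were 14 (18.2%, under the share of all genes) and 2. The 20 other TOP mRNA genes had 4 higher (20%, near the share of all genes), led by the poly(A)-binding protein Pabpc1 (0.70 ± 0.19, FDR 0.0188) and nucleophosmin Npm1 (0.63 ± 0.25, FDR 0.0823), and 1 lower (5%); without library 4 they had 1 higher (5%) and 3 lower (15%). In 19 of these 20 the lowest aged bleo library was 2 or 3, the order also seen in the core ribosomal protein genes. Library 4 was the highest of all libraries for 11 of the 20 (55%). The mitochondrial ribosomal protein genes had this order too. Of the 77, 62 (80.5%) were highest in library 4, and 70 (90.9%) had library 2 or 3 as the lowest aged bleo library. The shares of all genes tested were 23.7% and 36.5%.

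**Figure D5:**
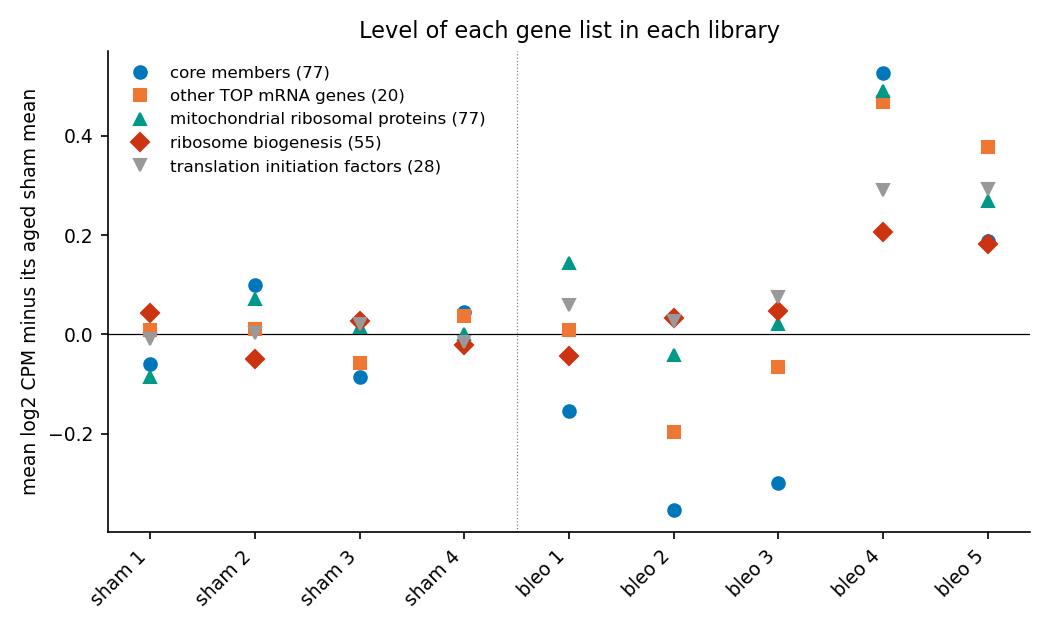
Mean log2 CPM of 5 gene lists in each library minus the mean of that list in aged sham (vertical axis); the dotted line parts aged sham from aged bleo. The core genes range from -0.35 (aged bleo library 2) to 0.53 (library 4), and the ribosome biogenesis genes stay within -0.05 and 0.21.

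Ribosome biogenesis genes were called in both directions. Of 55, 15 were called higher (27.3%, against 23.4% of all genes) and 6 lower (10.9%, against 21.4%), with a median of 0.11; without library 4 the counts were 11 (20%, against 21.8%) and 7 (12.7%, against 22.5%). Nhp2, of the box H/ACA particles that modify ribosomal RNA, rose by 0.85 ± 0.29, and Pno1, a small subunit assembly factor, was at most at 12.3 CPM in aged sham and at least at 16.3 CPM in aged bleo (0.81 ± 0.16, FDR 0.00607). Nop58, of the box C/D particles, fell: it was at 124, 126, 120 and 112 CPM in aged sham and 51.1, 72.1, 58.2, 58.9 and 67.1 CPM in aged bleo (-0.97 ± 0.10, FDR 0.000213). Its groups did not overlap.

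Of 28 translation initiation factors, 11 were called higher (39.3%, against 23.4% of all genes) and 2 lower (7.14%, against 21.4%), with none past a fold of 1.5; without library 4 the counts were 9 (32.1%, against 21.8%) and 2 (against 22.5%). Of 26 genes of TOP mRNA and mTORC1 control, 7 were called higher (26.9%) and 5 lower (19.2%), with or without library 4, shares near those of all genes. Those past a fold of 1.5 were Ddit4, an inhibitor of mTORC1 (2.17 ± 0.37, FDR 0.00271), the stress-induced Sesn3 (0.77 ± 0.19) and Eif4ebp1, a repressor of cap-dependent initiation (0.73 ± 0.19). Myc, the transcription factor known to drive ribosome production, was at 209, 160, 159 and 165 CPM in aged sham and 55.1, 87.7, 73.4, 28.2 and 45.5 CPM in aged bleo (-1.58 ± 0.28, FDR 0.00360), lowest in library 4, where the ribosomal protein share was highest. Of the 7 tested genes of the Myc list, 1 was higher and 2 lower, and without library 4 1 was higher and 3 lower.

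Among the p53 surveillance genes, 3 of 6 were called higher and 1 lower (2 and 1 without library 4), where 23.4% of all genes were called higher and 21.4% lower (21.8% and 22.5% without library 4). Mdm2, the p53 ubiquitin ligase bound by Rpl5 and Rpl11, was at 60.04 to 64.1 CPM in aged sham and 70.0 to 80.3 CPM in aged bleo (0.25 ± 0.059, FDR 0.0112). Gtse1, which is also a cell cycle gene, rose by 2.66 ± 0.59 (FDR 0.00932). Cdkn1a and Trp53 did not pass the test (-0.05 ± 0.11, FDR 0.731, and 0.00 ± 0.070, FDR 0.987). Mdm2, Ccng1 and Mdm4, each under a fold of 1.5, were named after their values were seen; Ccng1 changed by 0.27 ± 0.099 and Mdm4 by -0.31 ± 0.11.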

How the data were processed

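Poly-A libraries of sorted fibroblasts, 1 per mouse, were made with an unstranded kit from 200 ng of RNA. The authors deposited 1 table of raw counts per gene and FPKM values (reads scaled by gene length and by the reads of the library) for the 9 libraries; the submitters' processing notes name STAR 2.5.2b, Subread and featureCounts and the builds mm10 and GRCm38, and the strand setting, the counting of reads with several matches and the annotation version are not given in the sources used here. Reads with several matches bear on this class, since most of its transcripts share sequence with other genes. All 9 libraries entered 1 fit: edgeR 4.0.16 (R 4.3.3), TMM scaling, quasi-likelihood test, no covariate, over the 16877 genes with a mean raw count of 25 or more, Benjamini-Hochberg adjustment over all of them, threshold 0.10. Standard errors (SE) are the log2 fold change over the root of the F statistic, and values after ± are SE for fold changes and SD for levels. CPM are counts per 1000000 after TMM scaling, with a prior count of 2 on the log2 scale. The p-values measure the spread between these libraries. No same-group pair agreed within sampling noise (chi-square over degrees of freedom at least 30.9). The steps were tested on simulated data.

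Genes, lists and tests were chosen with earlier results of these data known. Named were the genes past the FDR of 0.10 (at most 8 in each direction), the 5 highest and 3 lowest by FPKM, the stalk, 5S particle, Rps6, X-linked and paralog genes, Fau and Gnb2l1, and for other lists up to 3 genes per direction with an FDR under 0.10 and a fold over 1.5; other genes, such as Rpl37a, Rpl35a, Rps15a, Tmtc1 and Osbpl10, were named after their values were seen. Some genes that this rule takes in are not reported here. Windows of 50 bases were compared across all GENCODE M21 transcripts. There, 78.9% of all shared identifiers had the position of the deposited table, and 52 of the 90 genes (57.8%) did. The alternatives were RLE, upper quartile and library-size scaling, scaling without the 90 genes, DESeq2 1.42.0, limma 3.58.1 on log2 CPM and on log2(FPKM + 0.1) and log2(FPKM + 1), other filters, a robust fit, a replicate block, removal of GC and length trends, and leaving out each library. Protein identity between paralogs was planned and not run.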

Additional observations from a re-analysis of the deposited data

Results flagged for a closer look

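In 72 groups of values (26 named genes and 10 library measures, in each group of libraries), 9 had a library far from the others of its group by Dixon's test; chance flags about 1 in 20 groups, and the values of 1 library are not independent. Aged bleo library 4 accounted for 6 of the 9. It had 487 CPM of Rpl8, a large subunit protein, against 309 to 360 CPM in the other aged bleo libraries. It had 202 CPM of Fau, against 106 to 121 CPM. The pseudogene-symbol row Rps12-ps3 was at 1.73 CPM, against 0.604 to 0.747 CPM. Its total was 68260600 counted reads, against 53833507 to 57391854. Its mean log2 CPM was 6.16 over the pan-leukocyte list, against 3.56 to 4.22, and 6.62 over the neutrophil list, against 3.51 to 4.11. Their part in its ribosomal protein level was not tested.

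In the other flagged groups, Rpl10-ps3 was at 0.421 CPM in aged bleo library 5, against 0.805 to 0.934 CPM. Rpl41 was at 113 CPM in aged sham library 2, against 96.8 to 97.3 CPM in the other aged sham libraries. The cell cycle list had a mean log2 CPM of 2.02 in aged sham library 1, against -0.12 to 0.01 in the other aged sham libraries.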

How the results depend on the processing

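The counts of calls among the 90 genes were small, and few genes lay near the threshold. The 4 called higher became 2 with library-size scaling, with no filter, at an FDR of 0.05 and with a replicate block, and 7 with libraries scaled to the core genes. The 1 called lower became 0 with library-size or upper quartile scaling, on either FPKM scale, with no filter and at an FDR of 0.05, 2 in DESeq2 and 5 with GC and length trends removed. Leaving out aged bleo library 4 and aged sham library 4 together, chosen after seeing the data, gave 2 higher and 10 lower. The share of all genes called was computed only for the main fit, the scaling to the core genes and the fits without aged bleo library 4 or 2. The counts of the other alternatives therefore cannot be set against it. With single libraries left out, 2 to 7 genes were called higher, 0 to 22 lower, 2 to 3 higher and 0 to 1 lower with a fold over 1.5, and the median log2 fold change ran from -0.17 to 0.09; the lowest median and the 22 came without aged bleo library 4 and the 7 without library 2. Fau, at 0.01 with all libraries, was called lower without library 4 (-0.21) and was 0.082 without library 2. The cause of these shifts was not tested. Over 26 named genes, 576 of 624 alternative values kept their direction and side of the threshold or moved by less than 1 SE; Rps4l and Rps27l kept their call in all of them. The equal replicate numbers were no pairing by the data: deviations of same-numbered libraries correlated at 0.09, 0.06, -0.13 and 0.33 over all genes, and with the replicate block Rps27l kept its call (0.70, FDR 0.0573) while Rpl41 lost it (0.44, FDR 0.256). The share of counted reads, aged bleo mean over aged sham mean, was 1.00, and 1.02 over protein-coding counts. Limits are the spread among 5 aged bleo libraries and the sequence that most of these genes share with other annotated genes. The core genes held 661572 to 1588557 counts per library.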

Other observations

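Beside the 90 genes, 246 rows of the deposited table carried a ribosomal protein symbol with a pseudogene suffix, 204 of them under the count minimum. Together they held 0.0626% to 0.0729% of the counted reads in aged sham and 0.0559% to 0.110% in aged bleo. For every 100 counts on the 90 genes, these rows held 4.19 to 4.52 counts in aged sham and 4.43 to 4.84 in aged bleo, with the highest value in aged bleo library 3 and not in library 4, whose ratio was 4.67. Within each group, the summed share of these rows thus had the same library order as that of the 90 genes. The ratio in aged bleo libraries 1 to 4 lay above all aged sham libraries, and that of library 5 did not. No row was compared with its parent gene, and whether reads of the parents were counted in these rows was not tested.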
